A study of Mus musculus with 9 samples.

Results

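Ephrins and their Eph receptors pass signals between cells that touch. The 10 genes described here are 4 ephrins, *Efna1*, *Efna5*, *Efnb1* and *Efnb2*, and 6 Eph receptors, *Epha2*, *Epha3*, *Epha4*, *Epha5*, *Ephb2* and *Ephb4*. They were chosen by gene symbol. Each matched 1 of the 15820 entries that carry a symbol, in a table of 22013 entries, and each passed the filter on low values in all 3 comparisons. Whole lenses were taken from mouse embryos at E16.5 (embryonic day counted from the vaginal plug) for RNA sequencing, in 3 genotypes with 3 libraries each. Control lenses carried 1 germline knockout allele of each of *Mafg* and *Mafk* (*Mafg*+/-:*Mafk*+/-), so that no group was free of a knockout allele. Compound KO lenses lacked *Mafg* and kept 1 functional allele of *Mafk* (*Mafg*-/-:*Mafk*+/-). In double KO lenses both were missing (*Mafg*-/-:*Mafk*-/-). The knockout alleles are carried in the germline, the mice were kept on an ICR background, and each library pooled 8 lenses. The comparisons therefore ask how the transcripts of these ligands and receptors stood when 1 or both small Maf genes were lost.

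Small Maf proteins bind DNA as dimers, with each other or with partners such as Nrf2 and Bach1, and have no activation domain of their own. Eph receptors are receptor tyrosine kinases. The A-class ephrins are held at the membrane by a lipid anchor and the B-class ephrins span it, and contact between a ligand on a cell and a receptor on its neighbour signals into both cells and alters their adhesion and shape. In the lens, Epha2 and ephrin-A5 are known for keeping fiber cells and epithelial cells in order, and variants of human *EPHA2* cause cataract. *Epha3*, *Epha4*, *Epha5* and *Ephb2* are best known from the nervous system, where they guide axons, including those of the retina, and *Efnb2* and *Ephb4* mark arteries and veins, respectively.

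The value used here is the authors' normalized CPM, that is, CPM (each count as a share of its library's summed counts) scaled by a composition factor for each library and rounded to 1 decimal. The values in a library added up to between 728036 and 1131184. These sums are not sequencing depths, and since the depth is unknown no counting interval is given. *Mafg* was at 112.9 to 134.5 in control libraries, 10.1 to 24.1 in compound KO libraries and 21.2 to 26.2 in double KO libraries, and *Mafk* was at 5.2 to 6.3, 4.3 to 5.3 and 0.0 to 0.6. *Mafg* kept a level above 0 in the lenses that lack it.

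Compound KO replicate 1 stood apart from the other 8 libraries. The summed level of 9 lens fiber markers was 13680 there, against 26720 to 40310 elsewhere, with 8 of the 9 at their lowest, and that of 8 lens epithelium markers was 1758, against 2290 to 4467. Of these 8, 5 were at their lowest there and 3 (*Gja1*, *Pax6* and *Sfrp2*) at their highest, and *Cryab* took the largest part of the sum, at 791.4 against 1123.6 to 3190.7. Its sum of 12 neural retina markers was 1239, against 53.2 to 336.0, with all 12 at their highest. The retina marker *Crx* was at 18.2 there, at 0.0 in control replicate 2 and double KO replicate 2, and at 2.3 to 9.1 in the others. The sum of 10 markers of periocular mesenchyme and fibroblasts was 2123, against 22.7 to 215.7, with 9 of 10 at their highest. The sums were also above all other libraries for 5 pigment cell markers (685.3 against 3.3 to 32.4), 6 skeletal muscle markers (219.8 against 1.4 to 59.2) and the 2 surface epithelium markers in the table (254.6 against 0.4 to 6.1), while the erythroid sum of 1111 lay among those of the others (917.4 to 2722). The sum of 10 endothelial markers was 152.5, against 70.0 to 86.3, with 5 at their highest and 2 at their lowest, and *Kdr* was at 83.2 there against 8.7 to 19.3. The part of these markers in the results below was not tested, and the main fold changes and counts that rest on the compound KO group are given with and without this library.

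Promoter sequences are shown for the members in which the letters of a small Maf element occur, since *Mafg* and *Mafk* encode small Maf proteins. In RefSeq promoters (from 250 bases before to 50 bases after the annotated start, 11 promoters for the 10 genes), TGCTGA, a part of the Maf recognition element, and TGACNNNGC, the core of the antioxidant response element, were searched on both strands. The first occurred at *Efna1*, *Ephb4* and *Efnb1*, and in 19.5% of all 32851 promoters. The second occurred at *Efnb2*, where it was found 3 times, and at *Efna5*, and in 12.4% of all promoters. TGCTGA followed after 1 or 2 bases by its reverse complement was in 0 of the 11 promoters and in 4 of all. The matches of the 2 motifs did not overlap each other. A match is a description of the letters and does not show binding. Each stretch below reads 5′ to 3′ on the strand of its gene, lies before the gene's first annotated exon, was placed by an exact match on GRCm39, and has the motif, or its reverse complement TCAGCA, in capitals.
Efna1 (chr3:89188450-89188495, minus strand): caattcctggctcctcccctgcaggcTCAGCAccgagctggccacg
Ephb4 (chr5:137348187-137348244, plus strand): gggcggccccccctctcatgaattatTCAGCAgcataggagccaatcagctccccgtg
Efnb1 (chrX:98179417-98179463, plus strand): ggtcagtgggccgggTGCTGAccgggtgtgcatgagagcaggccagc
Efnb2, distal (chr8:8711455-8711492, minus strand): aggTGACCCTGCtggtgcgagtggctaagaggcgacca
Efnb2, proximal (chr8:8711250-8711318, minus strand): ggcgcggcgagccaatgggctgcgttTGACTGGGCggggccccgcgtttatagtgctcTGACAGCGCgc
Efna5 (chr17:63188519-63188562, minus strand): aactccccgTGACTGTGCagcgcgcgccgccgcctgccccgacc

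Both *Efnb2* stretches also overlap an exon of the non-coding gene 4921522P10Rik, and the others overlapped no annotated exon. Counted from the RefSeq start of the promoter table, the match began 211 bases upstream at *Efna1*, 158 at *Ephb4*, 235 at *Efnb1*, 241 at *Efna5* and 247, 50 and 18 at *Efnb2*. Counted from the GENCODE gene start on GRCm39, used for the positions below, these distances were 20, 61, 248, 241 and 240, 43 and 11. *Epha2*, *Epha3*, *Epha4*, *Epha5* and *Ephb2* held neither motif in this window, as is usual at the shares over all promoters given above.

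Divided by the length of the longest annotated transcript, the levels in control lenses spanned more than 2 orders of magnitude. *Efnb2* was highest at 33.0 ± 0.69 normalized CPM per kb (SD, n = 3 libraries), followed by *Epha2* at 22.0 ± 2.75. *Efnb1* at 9.13 ± 0.61 and *Efna5* at 8.32 ± 0.56 overlapped in range, and *Ephb4* was below both at 6.72 ± 0.31. *Efna1* at 4.11 ± 0.83 and *Ephb2* at 2.10 ± 0.82 came next and did not overlap. *Epha5* at 0.37 ± 0.08, *Epha3* at 0.25 ± 0.11 and *Epha4* at 0.23 ± 0.13 were lowest, and their ranges overlapped. Of the summed level per kb over the 21 Eph and ephrin genes in the table, *Efnb2* held 33.2%, *Epha2* 22.2% and the 10 genes together 86.8%. That last share was 85.8% in double KO lenses and 76.8% in compound KO lenses, or 81.8% without compound KO replicate 1. With the union of all exons as the length, 5 of the 10 genes kept their place in this order in control lenses, *Efna5* then stood above *Efnb1*, and *Epha4* stood above *Epha5* and *Epha3*. *Efnb2* and *Epha2* led under either length in control lenses.

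**Figure D1:**
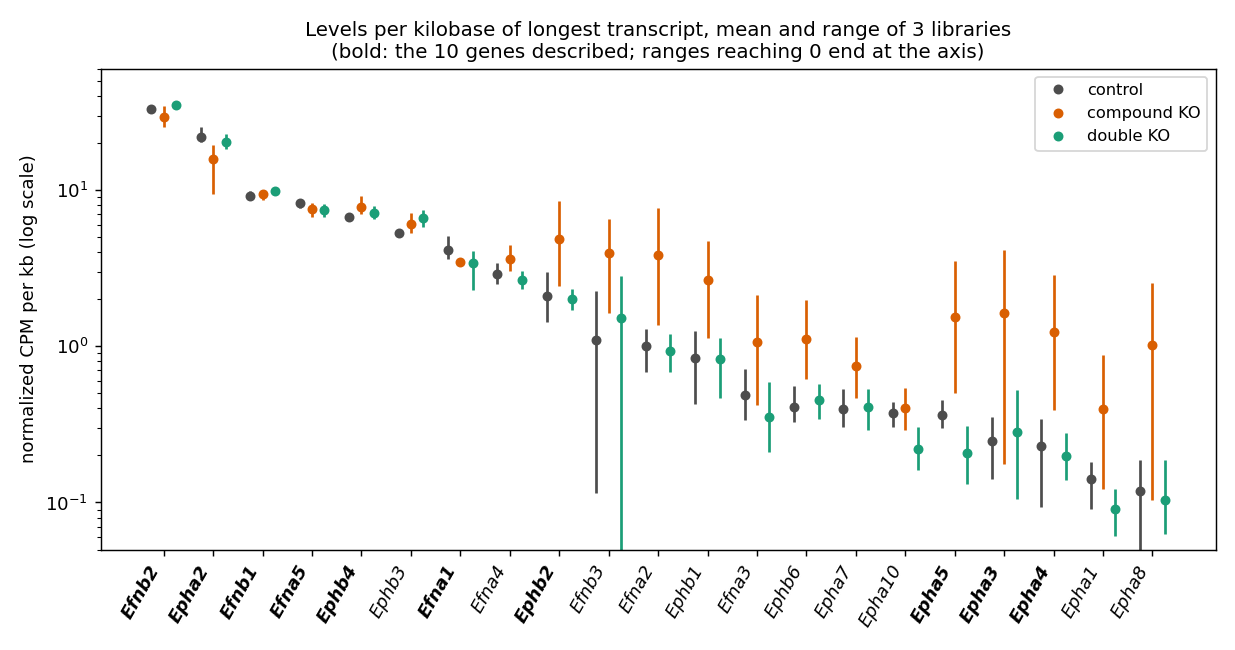
Normalized CPM per kb of longest transcript (log axis) for the 21 Eph and ephrin genes in the table, ordered by their level in control lenses, with points for the means and lines for the range of 3 libraries in control (grey), compound KO (orange) and double KO (green) lenses. *Efnb2* and *Epha2* lead in all 3 genotypes, and the compound KO ranges of *Ephb2*, *Epha3*, *Epha4* and *Epha5* reach far above the control ranges.

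*Efna5*, the ligand whose loss disturbs lens cell packing, lies on chromosome 17 (62909956 to 63188312, GRCm39) and was at 45.6, 40.3 and 45.2 normalized CPM in control replicates 1 to 3, at 35.6, 40.4 and 43.5 in compound KO and at 42.9, 35.6 and 39.1 in double KO replicates. The groups overlapped. Its log2 fold change, on the scale of log2(value + 1), was −0.15 in double KO against control lenses (95% interval −0.38 to 0.07, adjusted p = 0.659, limma) and −0.13 in compound KO against control lenses (−0.40 to 0.13, adjusted p = 0.554, limma), or −0.06 (adjusted p = 0.800, limma) without compound KO replicate 1. Both intervals lay within a 1.5-fold change in either direction.

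*Efna1*, a ligand of Epha2 and other A-class receptors, lies on chromosome 3 (89179037 to 89188449) and had low values, at 7.6, 7.6 and 10.6 in control, 6.9, 7.3 and 7.6 in compound KO and 8.5, 8.2 and 4.8 in double KO lenses. Double KO replicate 3 was the lowest of the 9 libraries and control replicate 3 the highest. The log2 fold change was −0.25 in double KO against control lenses (95% interval −0.85 to 0.34, adjusted p = 0.789, limma) and −0.20 in compound KO lenses (−0.61 to 0.21, adjusted p = 0.564, limma), or −0.17 (adjusted p = 0.715, limma) without compound KO replicate 1. The first 2 intervals reached beyond 1.5-fold.

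Among the B-class ephrins, *Efnb1* lies on the X chromosome (98179680 to 98205454) and had the narrowest spread of the 10 genes, from 28.6 to 33.9 over the 9 libraries. Values were 28.6, 29.7 and 32.5 in control, 32.1, 28.7 and 32.4 in compound KO and 33.9, 31.0 and 33.7 in double KO lenses. All 3 comparisons gave intervals within 1.5-fold, with log2 fold changes of 0.12 (adjusted p = 0.685), 0.04 (adjusted p = 0.863) and 0.08 (adjusted p = 0.732) in double KO against control, compound KO against control and double KO against compound KO lenses (limma). The last 2 were 0.01 (adjusted p = 0.970) and 0.10 (adjusted p = 0.844, limma) without compound KO replicate 1. The highest value of *Efnb1* was 1.19 times its lowest, while *Xist*, the X-inactivation RNA, was between 122.9 (control replicate 2) and 581.5 (control replicate 1) in the same libraries.

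*Efnb2*, the ligand of Ephb4 and Ephb2 and the family's leading gene per kb, lies on chromosome 8 (8667226 to 8711249). It was at 168.8, 164.8 and 161.9 in control, at 127.6, 141.7 and 171.8 in compound KO and at 172.2, 183.1 and 173.1 in double KO lenses. Every double KO library was above every control and every compound KO library, and the compound KO libraries were the most dispersed. The differences were small. The log2 fold change was 0.09 in double KO against control lenses (95% interval −0.02 to 0.20, adjusted p = 0.579, limma) and 0.27 in double KO against compound KO lenses (−0.04 to 0.57, adjusted p = 0.665, limma), both within 1.5-fold and neither past the threshold. Compound KO against control lenses gave −0.18 (−0.48 to 0.12, adjusted p = 0.515, limma). The last 2 comparisons gave 0.17 (adjusted p = 0.830, limma) and −0.08 (adjusted p = 0.738, limma) without compound KO replicate 1, and the double KO libraries were still above the compound KO libraries. Scaled by library size only, the double KO libraries overlapped both other groups.

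The receptors differed in how far compound KO replicate 1 stood from the other libraries. *Ephb4*, the venous receptor of ephrin-B2, lies on chromosome 5 (137348274 to 137376931), 2.40 Mb from *Mafk*. It was at 30.4, 28.1 and 30.6 in control, at 40.4, 31.1 and 31.5 in compound KO and at 34.8, 28.7 and 30.7 in double KO lenses. Compound KO replicate 1 was the highest of all libraries, at 40.4 against 28.1 to 34.8. Each compound KO library was above each control library, by 0.19 on the log2 scale (95% interval −0.12 to 0.51, adjusted p = 0.502, limma), and without compound KO replicate 1 by 0.07 (adjusted p = 0.678, limma). The log2 fold change in double KO against control lenses was 0.07 (−0.14 to 0.29, adjusted p = 0.838, limma).

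*Epha2*, the receptor linked to cataract, lies on chromosome 4 (141028540 to 141056695). Values were 80.6, 98.8 and 79.6 in control, 36.9, 72.2 and 76.4 in compound KO and 77.7, 71.8 and 90.2 in double KO lenses. The 3 compound KO values were below the 3 control values, and compound KO replicate 1 was at 0.427 times the control mean. The log2 fold change in compound KO against control lenses was −0.54 (95% interval −1.27 to 0.19, adjusted p = 0.482, limma), and −0.21 without that library (adjusted p = 0.533, limma). In the same library the lens fiber and lens epithelium marker sums were at their lowest. Double KO lenses overlapped control lenses, with a log2 fold change of −0.11 (−0.41 to 0.19, adjusted p = 0.825, limma), an interval within 1.5-fold. Against compound KO lenses it was 0.43 (−0.30 to 1.16, adjusted p = 0.665, limma), or 0.10 (adjusted p = 0.870, limma) without compound KO replicate 1.

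*Epha5*, an A-class receptor that binds ephrin-A5, lies on chromosome 5 (84202620 to 84565348), 55.2 Mb from *Mafk*. It was at 3.8, 2.9 and 2.5 in control, at 29.4, 4.9 and 4.2 in compound KO and at 1.1, 1.5 and 2.6 in double KO lenses. The compound KO libraries lay above all others and the double KO libraries low, with double KO replicate 3 just above control replicate 3. In double KO against control lenses the log2 fold change was −0.60 (95% interval −1.19 to −0.00146, standard error 0.24), with an unadjusted p of 0.0496 and an adjusted p of 0.500 (limma). The study chose *Epha5* on these samples, so this direction is not independent evidence. The study also reported *Epha5* as lower in double KO lenses by RT-qPCR, an assay that was not examined here. With a single library left out the log2 fold change was between −0.82 and −0.43. The double KO libraries also stood apart from the control libraries in marker sums, with lens fiber at 26720 to 28830 against 33740 to 40310, lens epithelium at 2795 to 3041 against 3789 to 4467, muscle at 16.6 to 59.2 against 1.4 to 2.8 and erythroid cells at 1800 to 2722 against 917.4 to 1240, and their part in this difference was not tested. At 1.1 to 3.8 normalized CPM the values are low, and the pseudocount of 1 draws such a fold change towards 0.

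Against compound KO lenses, *Epha5* in double KO lenses differed by −1.87 on the log2 scale (95% interval −3.66 to −0.09, unadjusted p = 0.0424, adjusted p = 0.665, limma). Without compound KO replicate 1 this was −1.06 (unadjusted p = 0.0125, adjusted p = 0.830, limma), still with no overlap. Compound KO against control lenses gave 1.28 (−0.47 to 3.03, adjusted p = 0.482, limma) with that library and 0.46 (adjusted p = 0.445, limma) without it. None of these passed after adjustment over all genes tested.

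*Epha3* and *Epha4* were at 3.5 or less outside compound KO replicate 1. *Epha3*, on chromosome 16 (63363897 to 63684538), was at 2.0, 0.8 and 1.4 in control, at 23.4, 3.5 and 1.0 in compound KO and at 3.0, 0.6 and 1.2 in double KO lenses. A single library was high and the groups overlapped. *Epha4*, a receptor for both ephrin classes on chromosome 1 (77343822 to 77492816), was at 2.2, 0.6 and 1.6 in control, at 18.3, 3.1 and 2.5 in compound KO and at 1.8, 1.1 and 0.9 in double KO lenses. Its compound KO values were above all 6 others.

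In compound KO against control lenses the log2 fold change was 1.36 for *Epha3* (95% interval −0.91 to 3.63, adjusted p = 0.510, limma) and 1.46 for *Epha4* (−0.31 to 3.23, adjusted p = 0.481, limma). Without compound KO replicate 1 these were 0.35 (adjusted p = 0.757, limma) and 0.68 (adjusted p = 0.501, limma). In double KO against control lenses they were 0.04 (−0.91 to 0.99) and −0.08 (−0.83 to 0.66), with adjusted p-values of 0.987 and 0.958 (limma), so that changes well beyond 1.5-fold in either direction stayed inside the intervals. The sign for *Epha3* was negative with a pseudocount of 0.1. Double KO against compound KO lenses gave −1.32 for *Epha3* (−3.68 to 1.03, adjusted p = 0.665, limma) and −1.54 for *Epha4* (−3.23 to 0.14, adjusted p = 0.665, limma). Leaving out compound KO replicate 1 changed these to −0.31 (adjusted p = 0.917, limma) and −0.76 (unadjusted p = 0.0191, adjusted p = 0.830, limma).

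*Ephb2*, a B-class receptor on chromosome 4 (136374850 to 136563351), was at 33.0, 15.6 and 20.5 in control, at 93.5, 39.3 and 26.8 in compound KO and at 25.6, 21.7 and 18.7 in double KO lenses. These last were below the compound KO libraries and among the control libraries. Compound KO lenses differed from control lenses by 1.04 on the log2 scale (95% interval −0.22 to 2.31, adjusted p = 0.481, limma), and by 0.54 without compound KO replicate 1 (adjusted p = 0.583, limma). Double KO lenses differed from compound KO lenses by −1.05 (−2.18 to 0.07, adjusted p = 0.665, limma), and by −0.55 without that library (adjusted p = 0.830, limma). Between double KO and control lenses the difference was −0.01 (−0.70 to 0.69, adjusted p = 0.997, limma), and its sign turned when libraries were scaled by their size only.

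**Figure D2:**
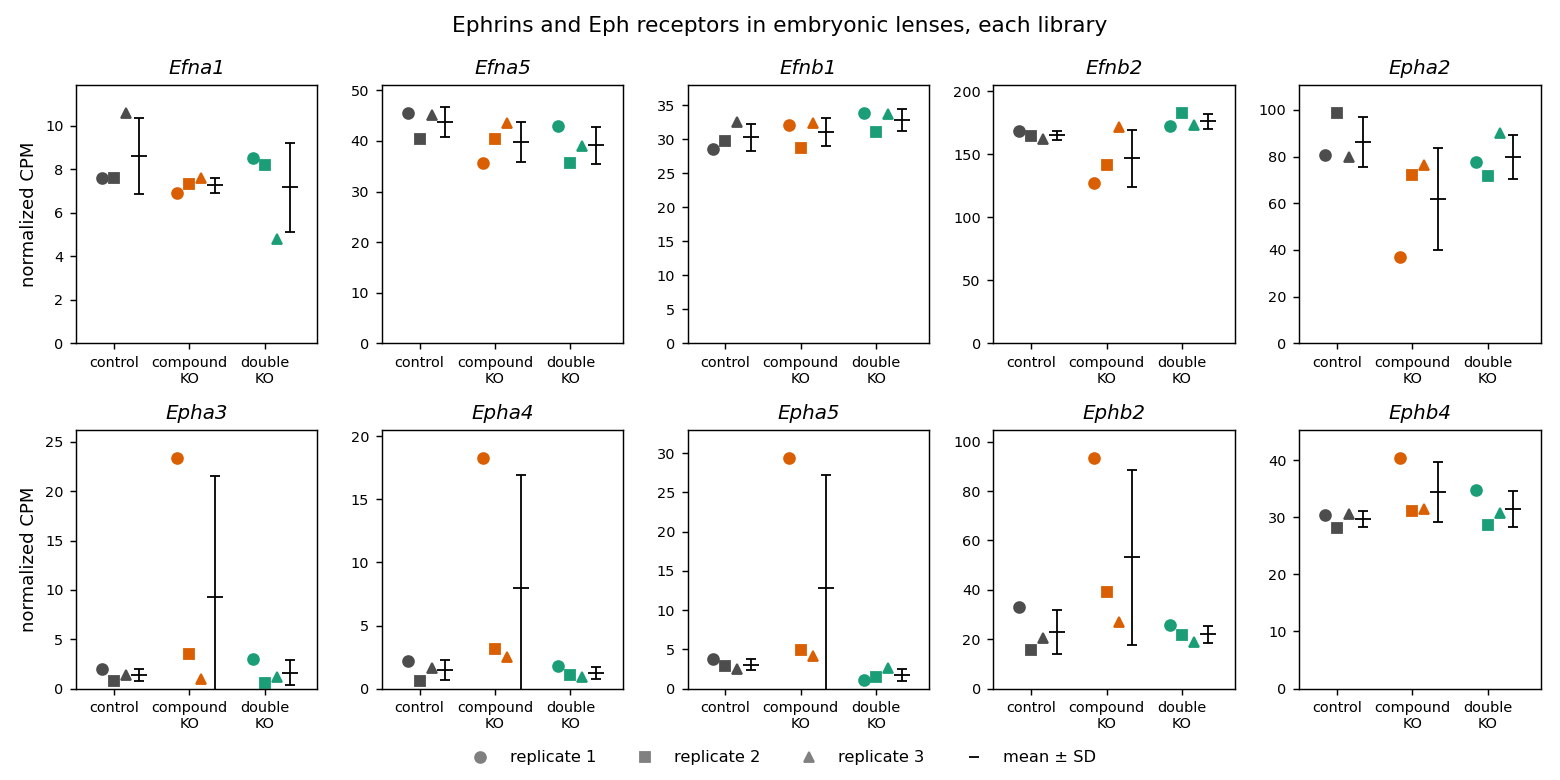
Normalized CPM of each of the 10 genes in each library (circle, square and triangle for replicates 1, 2 and 3), by genotype, with the mean ± SD beside the points and a linear axis from 0. In *Epha3*, *Epha4*, *Epha5* and *Ephb2* compound KO replicate 1 (23.4, 18.3, 29.4 and 93.5) lies far above the other libraries, and in *Epha2* (36.9) far below. *Efnb1* has the narrowest spread (28.6 to 33.9).

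Across the 10 genes, 5 had their highest and 2 (*Efnb2* and *Epha2*) their lowest value of the 9 libraries in compound KO replicate 1. Over all genes that reached 1 in 2 or more libraries, these shares were 33.5% and 28.0%. The highest values were those of *Epha3*, *Epha4*, *Epha5*, *Ephb2* and *Ephb4*. As a log2 ratio to the control mean, with 1 added to both, that library was at 3.35 for *Epha3*, 2.97 for *Epha4*, 2.90 for *Epha5* and 1.98 for *Ephb2*, beside 3.52 for the neural retina sum and 5.81 for the mesenchyme sum. In compound KO replicate 2, with the second highest retina sum, *Ephb2*, *Epha3*, *Epha4* and *Epha5* were at 0.75, 0.91, 0.73 and 0.54. In double KO replicate 1, with the third highest, they were at 0.15, 0.74, 0.18 and −0.95. In compound KO replicate 3, with a retina sum of 155.5, they were at 0.21, −0.26, 0.50 and 0.35. In control replicate 2, with the lowest retina sum, they were at −0.53, −0.415, −0.62 and −0.06. The mesenchyme sum ordered the libraries otherwise, at 2.52 in double KO replicate 1 and 2.05 in compound KO replicate 2. Whether these receptors follow any of the marker sums was not tested. In lenses as in any bulk sample, fewer cells of a type and less RNA per cell cannot be told apart.

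**Figure D3:**
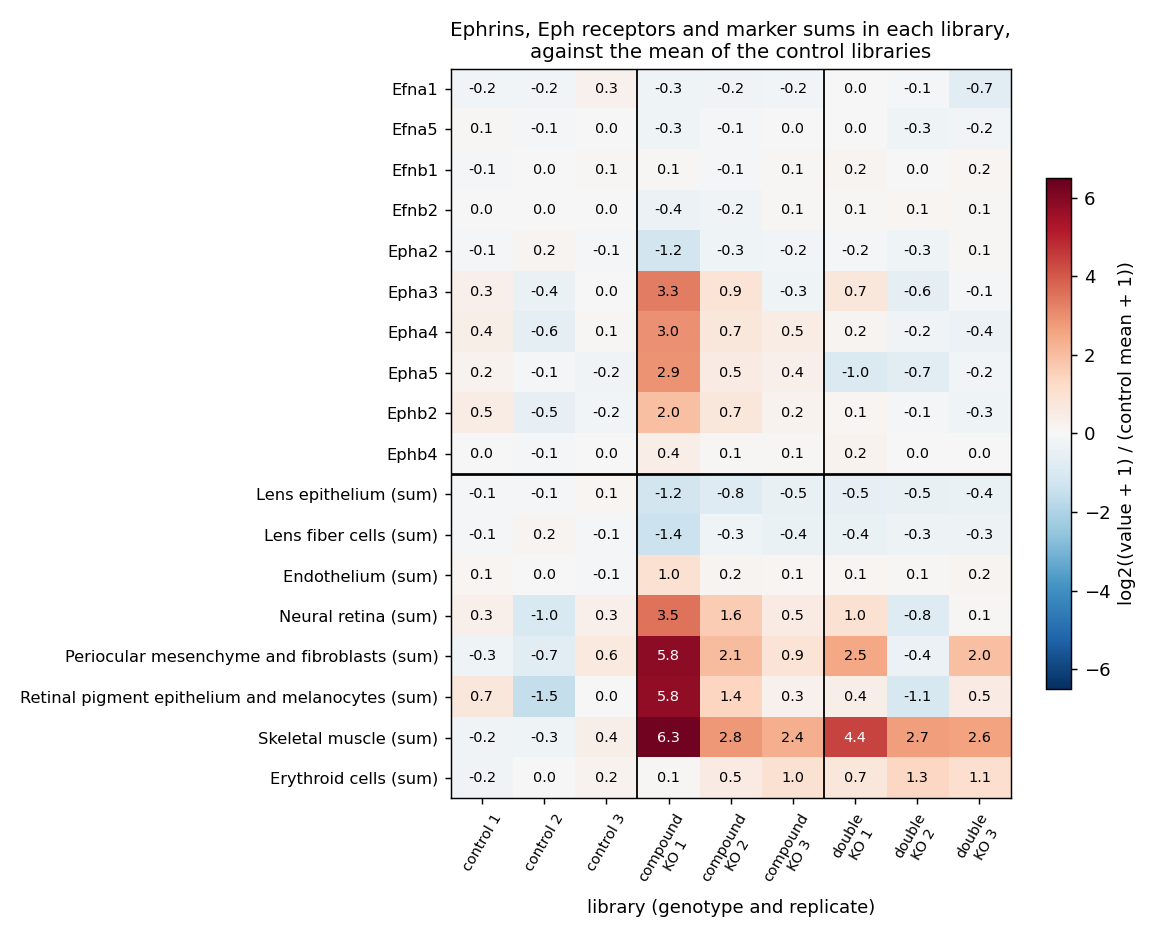
Log2 ratio of each library's value plus 1 to the control mean plus 1 (color and printed number) for the 10 genes and, under the line, for summed marker levels of 8 cell types. Compound KO replicate 1 reaches 3.35 for *Epha3* and 3.52 for the neural retina sum, while its lens fiber sum is at −1.39 and *Epha2* at −1.20.

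In the comparison of double KO with control lenses, 0 of the 10 genes passed the call rule of an adjusted p no higher than 0.05 with 1.5-fold or more (limma, Benjamini-Hochberg adjustment over 14122 genes), where 0.361% of all genes were called. When p was left unadjusted, with the same thresholds, *Epha5* was called, lower in double KO lenses, against a background of 2.83%. The p of 0.0496 lies at the threshold, and this call held in 3 of 8 other settings and in 1 of 6 fits with a library left out. *Efnb2* was the 1 gene of the 10 whose groups did not overlap, where 15.8% of all genes had no overlap. The median log2 fold change of the 10 genes was −0.05, against 0.01 over all genes tested. For 5 of the 10 (*Efna5*, *Efnb1*, *Efnb2*, *Epha2* and *Ephb4*) the 95% interval lay within 1.5-fold, as it did for 62.0% of all genes. For the other 5 the interval reached beyond 1.5-fold. With 3 libraries a group, an exact permutation test cannot give a p below 0.1.

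With compound KO set against control, 0 of the 10 genes were called after adjustment, and the share over all 14348 genes was 0%, with 766 genes (5.34%) passing at an unadjusted p and 1.5-fold. None of the 10 genes passed that unadjusted rule. The groups of 4 genes did not overlap (*Epha2* lower, and *Epha4*, *Epha5* and *Ephb4* higher in compound KO lenses), where 23.9% of all genes had no overlap. Without compound KO replicate 1, 4 genes again had no overlap, where 31.6% of all genes had none. With double KO set against compound KO, 0 of the 10 genes were called after adjustment, where 0.0139% of 14402 genes were called. *Epha5* passed the unadjusted rule, lower in double KO lenses, where 3.06% did. It also passed in 7 of 8 other settings and in 3 of 6 fits with a library left out. Without compound KO replicate 1, *Epha4* passed this rule beside *Epha5* (unadjusted p = 0.0191, adjusted p = 0.830, limma), where 317 of 14112 genes did. The groups of 4 genes did not overlap (*Efnb2* higher, and *Epha4*, *Epha5* and *Ephb2* lower in double KO lenses), where 15.6% of all genes had no overlap. Without compound KO replicate 1 this was again 4 genes, where 22.4% of all genes had none. The 3 comparisons share libraries and are given side by side for this reason.

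**Figure D4:**
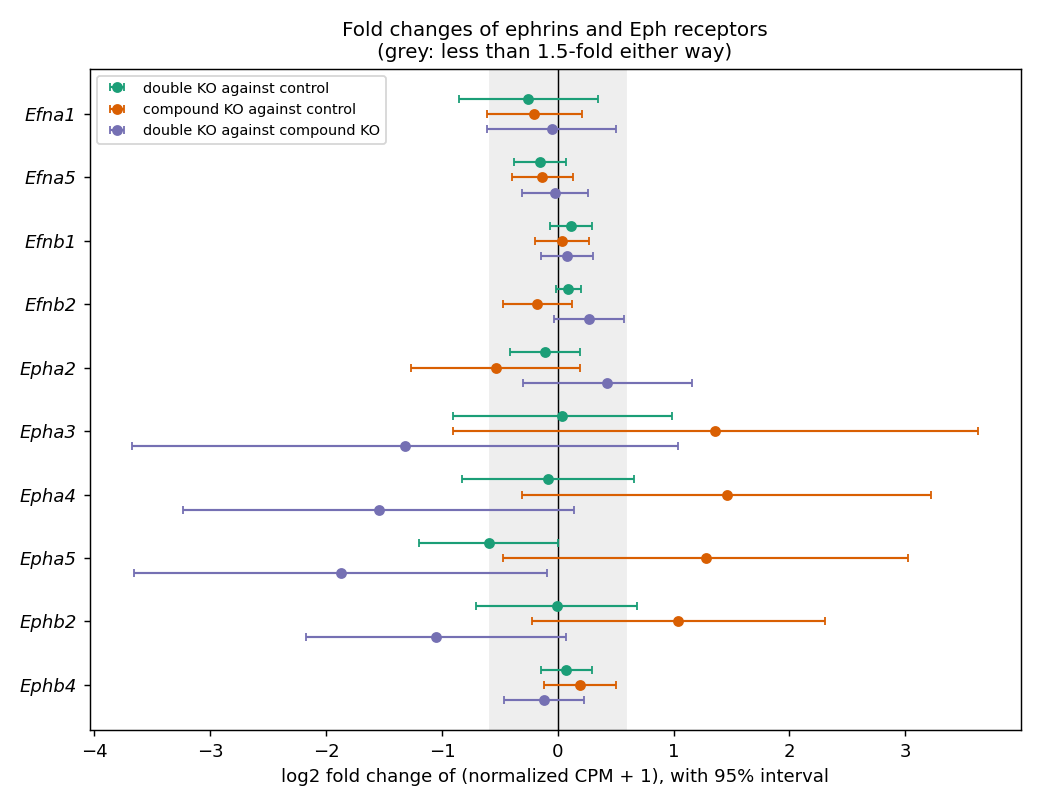
Log2 fold change of the value plus 1 (points) with its 95% interval from limma (lines) for the 10 genes in the 3 comparisons, with changes of less than 1.5-fold shaded. The intervals of *Efna5*, *Efnb1*, *Efnb2* and *Ephb4* lie within the shading in all 3 comparisons, while those of *Epha3*, *Epha4*, *Epha5* and *Ephb2* are wide wherever compound KO lenses enter.

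Scaling by library size only, in place of the authors' composition factors, moved the median of all genes from 0.02 to 0.24 in compound KO against control lenses and from −0.01 to −0.17 in double KO against compound KO lenses. With this scaling *Efna1*, *Efna5* and *Efnb2* were above control in compound KO lenses, at 0.03, 0.12 and 0.08. Relative to the median gene they were at −0.22, −0.13 and −0.17, close to −0.22, −0.15 and −0.19 with the authors' scaling.

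Of 12 other Eph and ephrin genes listed, 11 were in the table, and *Epha6* was not analysed here. Against control lenses, 0 of 9 tested were called in double KO lenses, with 5 higher and 4 lower and a median log2 fold change of 0.01. Of these, *Ephb3* was at 0.31 (unadjusted p = 0.0247, adjusted p = 0.405, limma) and *Epha10* at −0.53 (unadjusted p = 0.0353, adjusted p = 0.453, limma). Both changes were less than 1.5-fold. In compound KO lenses 0 of 10 tested were called, all 10 were above control, and the median was 0.86, against 0.02 over all genes tested. When compound KO replicate 1 was left out, 8 of 9 tested were above control and 1 was below, with a median of 0.36 against 0.01 over all genes. In double KO against compound KO lenses 0 of 10 were called, 9 were lower and 1 higher, and the median was −0.87, or −0.42 without compound KO replicate 1. Over the whole family, with the 10 genes described above included, 14 of the 20 genes past the filter were highest in compound KO replicate 1. Of these 14, 5 are among those 10 genes. Over all genes that reached 1 in 2 or more libraries, 33.5% were highest there. *Ephb1*, a receptor known from retinal axons, was at 5.9, 2.0 and 3.9 in control, at 22.3, 9.9 and 5.3 in compound KO and at 5.3, 2.2 and 4.1 in double KO lenses. Its double KO values differed from the compound KO values by −1.32 on the log2 scale (unadjusted p = 0.0487, adjusted p = 0.665, limma), and by −0.82 without compound KO replicate 1 (unadjusted p = 0.0967, adjusted p = 0.830, limma).

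A list of 53 genes that act downstream of Eph receptors or ephrins, of which 51 were in the table and 50 were tested, was compared in the same way. In double KO against control lenses, 24 were higher and 26 lower, with a median log2 fold change of −0.01 against 0.01 over all genes tested. *Sipa1l1*, which encodes a Rap GTPase-activating protein, was called. It was at 22.8, 33.7 and 60.4 in control, at 55.2, 31.0 and 50.4 in compound KO and at 3.0, 4.1 and 2.3 in double KO lenses, or −3.19 on the log2 scale against control lenses (standard error 0.37, adjusted p = 0.0491, limma). The study also chose *Sipa1l1* on these samples, and reported it as lower in double KO lenses by RT-qPCR as well. Against compound KO lenses it was at −3.47 (adjusted p = 0.104, limma), and at −3.32 without compound KO replicate 1 (adjusted p = 0.146, limma). *Chn2*, a Rac GTPase-activating protein of the chimaerin family, was at 52.0, 57.3 and 52.0 in control, at 24.1, 43.3 and 41.1 in compound KO and at 37.1, 33.7 and 37.7 in double KO lenses. Both knockout groups were below all control libraries. The log2 fold change in double KO against control lenses was −0.56 (adjusted p = 0.0647, limma), short of 1.5-fold. In compound KO against control lenses it was −0.60 (unadjusted p = 0.0426, adjusted p = 0.481, limma), and −0.34 without compound KO replicate 1 (adjusted p = 0.260, limma).

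At an unadjusted p with 1.5-fold, 2, 3 and 2 of the 50 genes passed in double KO against control, compound KO against control and double KO against compound KO lenses, where 2.83%, 5.34% and 3.06% of all genes did. Besides *Sipa1l1* and *Chn2* these were 4 genes. The 3 genes in compound KO against control lenses were *Chn2*, *Grb10* and *Ngef*. Without compound KO replicate 1 all 3 fell short of 1.5-fold. The adaptor *Crk* was at 147.4, 159.7 and 153.5 in control lenses and at 141.3, 40.4 and 55.2 in double KO lenses, a difference of −1.16 on the log2 scale (adjusted p = 0.482, limma), and double KO replicate 1 was close to the control level. The adaptor *Grb10* was higher in compound KO than in control lenses, at 0.72 on the log2 scale (adjusted p = 0.481, limma), with 415.0 in compound KO replicate 1 against 211.9 and 215.2 in the others, and at 0.40 without that library (adjusted p = 0.305, limma). *Ngef*, an exchange factor that acts downstream of EphA receptors, was at −0.63 in the same comparison (adjusted p = 0.481, limma), and at −0.52 without it (adjusted p = 0.485, limma). *Ptpro*, a phosphatase that acts on Eph receptors, was at −1.53 in double KO against compound KO lenses (adjusted p = 0.665, limma), with 14.9 in compound KO replicate 1. Without that library it was at −0.91 and no longer passed (unadjusted p = 0.0626, adjusted p = 0.830, limma).

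The genes whose values ran most alike to those of *Epha2* and *Epha5* were sought among 8151 genes whose mean was 10 or more, by Pearson's r of log2 values over the 9 libraries, as a description. For *Epha2* these were *Bfsp2* (r = 0.995), which encodes a beaded filament protein of lens fibers, *Crybb1* (0.993), a beta crystallin, *Pabpc1* (0.993), *Gm7666* (0.986) and *Ccs* (0.985). Without compound KO replicate 1 the same 5 genes had r between 0.896 and 0.968. For *Epha5* they were *Ppp1cc* (0.974), *Wwc1* (0.972), *Creb1* (0.967), *Fbxo45* (0.965) and *Mlxip* (0.964), with r between 0.826 and 0.964 without that library. The points share their libraries' composition. *Bfsp2* was at 24.4 in compound KO replicate 1 and at 62.1 to 104.0 elsewhere, where *Epha2* was at 36.9 and at 71.8 to 98.8.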

How the data were processed

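RNA from lenses at E16.5 (9 libraries, 3 per genotype, separate pools of 8 lenses) was sequenced strand-specifically. Alignment by the authors used HISAT2 and mm39, StringTie gave counts per transcript, and edgeR was used to drop entries of low CPM. Trimmomatic and Cufflinks are also named in the submitters' processing notes, without versions. The deposited values are a signal, normalized CPM with 1 decimal, and read counts were not used here. The labels gave the groups, and each column's name its library. The table has 0 columns of values without a sample.

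Values were compared as log2(value + 1) with limma 3.58.1 (R 4.3.3; lmFit and eBayes with an intensity trend, two-sided), 1 fit per pair of groups, over symbol-bearing entries that reached 1 in 2 or more of the 6 libraries. P-values were adjusted by Benjamini-Hochberg over all genes tested, and a call needed 1.5-fold and an adjusted p no higher than 0.05. The unadjusted rule uses the thresholds that the study names. Before use, the fold change estimates were checked on simulated data. Changes were planted there only in genes with a mean log2(value + 1) of 2 or more. The 10 members and all lists were chosen with earlier results of these data known. Genes outside the 10 are named where they belong to the rest of the family or the signalling list and passed a call rule, adjusted or not, in any comparison, or were the 5 most alike. *Ephb3* and *Epha10* passed no call rule and are named for their unadjusted p in double KO against control lenses. Symbols are those deposited with the values. Positions and lengths come from GENCODE M39 (GRCm39) and promoters from RefSeq (GRCm38.p6). Python 3.11.15, pandas 2.3.3, numpy 2.4.6 and matplotlib 3.10.9 were used. Alternatives were other scalings, filters, pseudocounts, call rules, sample sets and lengths, a replicate block, and each library left out.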

Additional observations from a re-analysis of the deposited data

How the results depend on the processing

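None of the 10 genes was called after adjustment under any scaling, filter, pseudocount, sample set, block or omitted library tried. At an unadjusted p and 1.5-fold, 1, 0 and 1 of them were called in double KO against control, compound KO against control and double KO against compound KO lenses, and 400, 766 and 440 of all genes. In the same order, all genes called after adjustment were 51, 0 and 2 at first, 21, 2 and 5 in one fit of all 9 libraries, 10, 0 and 0 with the replicate block, and 22 to 47, 0 to 13 and 1 to 6 with a library left out. The first count was 33, 22 and 27 without control replicate 1, control replicate 3 and double KO replicate 1, and the highest counts of the other ranges were without compound KO replicate 1. For double KO against compound KO lenses the count was 1 with a pseudocount of 0.1 and 0 when each library compared had to reach a value of 1. Under that filter *Epha3* and *Epha4* were not tested.

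Libraries with the same replicate number deviated together weakly or not at all. The correlations of their deviations from the group means were −0.106 to 0.216, the highest between compound KO and double KO replicates 1. Of 9 libraries, 3 correlated best with their own number in both other groups. The numbers were not read as pairs in the main fits, and a replicate block was tried as an alternative. The replicate block changed no adjusted call of the 10 genes. At an unadjusted p with 1.5-fold it ended the calls of *Epha5* in double KO against control (unadjusted p = 0.109, adjusted p = 0.608, limma) and double KO against compound KO lenses (unadjusted p = 0.0689, adjusted p = 0.605, limma). It added *Epha4* and *Ephb2* in compound KO against control (unadjusted p = 0.0420 and 0.0187, adjusted p = 0.468 for both, limma) and double KO against compound KO lenses (unadjusted p = 0.0333 and 0.0275, adjusted p = 0.605 for both, limma). One fit of all 9 libraries also added both genes in these comparisons. The unadjusted p-values were 0.0484 and 0.0492 in the first (adjusted p = 0.330 for both, limma). They were 0.0394 and 0.0476 in the second (adjusted p = 0.507 for both, limma). A pseudocount of 0.1 added *Epha4* in the second (unadjusted p = 0.0470, adjusted p = 0.663, limma). The unadjusted call of *Epha5* against control was also lost with upper quartile scaling (unadjusted p = 0.0513), scaling by library size only (unadjusted p = 0.0555), a pseudocount of 0.1 (unadjusted p = 0.0532) and one fit of all libraries (unadjusted p = 0.369, limma), with adjusted p = 0.508 to 1. With a library left out it held without double KO replicate 3 alone, and that against compound KO lenses was lost without any 1 of the double KO replicates.

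Signs turned for small changes. Scaling by library size only gave 0.027 for *Efna1*, 0.12 for *Efna5* and 0.0782 for *Efnb2* in compound KO against control lenses, −0.10 for *Efnb1* in double KO against compound KO lenses and 0.057 for *Ephb2* in double KO against control lenses, where a pseudocount of 0.1 gave −0.00238 for *Epha3*. The cause was not tested. With a library left out, double KO against control lenses gave −0.32 to 0.34 for *Epha3*, −0.37 to 0.13 for *Epha4* and −0.24 to 0.27 for *Ephb2*. Double KO against compound KO lenses gave −0.18 to 0.18 for *Efna1*, −0.0985 to 0.0438 for *Efna5* and −0.19 to 0.000129 for *Ephb4*, and compound KO against control lenses −0.00215 to 0.0907 for *Efnb1*. The sign turned without control replicate 2 or double KO replicate 1 for *Epha3*, without control replicate 1 or double KO replicate 3 for *Epha4* and *Ephb2*, without double KO replicate 3 for *Efna1*, without compound KO replicate 3 or double KO replicate 2 for *Efna5*, without compound KO replicate 1 for *Ephb4* and without control replicate 1 for *Efnb1*. With the union of exons as the length, 5 of 10 genes kept their place in the order of levels. The depth is unknown, and the low values of *Epha3*, *Epha4* and *Epha5* limit what these libraries can show.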
